A study of Mus musculus with 21 samples.

Results

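Here 9 epithelial genes were followed through the first days of nephron progenitor culture: the simple keratins Krt7, Krt8, Krt18 and Krt19, the adhesion molecule Epcam, and the epithelial regulators Esrp1, Grhl2, Crb3 and Rab25. They were taken by name, with all their probe sets, which made 17 of the 34945 probe sets with a single gene symbol and 9 of 18193 genes. Expression was measured on 21 oligonucleotide arrays, 3 in each of 7 groups. The cells were nephron progenitors sorted by GFP from E16.5 mouse kidneys of a mixed background that carried the Six2GFPcre BAC transgene, which marks cells in which the Six2 promoter is active. This transgene was shared by all 7 groups.

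The first group was profiled straight after the sort (fresh cells). A pair of groups stayed as dispersed cells for a day (24 h) with DMSO or with 4 µM BIO, a GSK3 inhibitor that raises beta-catenin signalling. Another pair was spun into aggregates and held for 24 h in DMSO or in 4 µM BIO. The last pair were aggregates at 48 h, which had BIO on the first day and then either DMSO (BIO then DMSO) or BIO again (BIO for 48 h) on the second. Records for all groups alike gave 40000 cells per sample and 10% serum. No group of the labels spent 48 h in DMSO alone, so time in culture and the second-day treatment cannot be told apart where 48 h is set against 24 h. The labels number the arrays of a group as biological replicates without saying which litters, sorts or cultures they came from. The p-values therefore reflect array-to-array spread only, part of which may be technical.

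Keratins are intermediate filament proteins that work as pairs of one acidic and one basic chain. Krt8 (basic) with Krt18 (acidic) is the pair typical of single-layered epithelia, and Krt7 (basic) and Krt19 (acidic) join it in ducts. Epcam is a membrane protein of epithelial cells, Esrp1 directs epithelial splicing, Grhl2 is a transcription factor of epithelial genes, Crb3 is a Crumbs protein of the apical membrane, and Rab25 is a small GTPase of apical recycling. In the kidney the cap mesenchyme turns into epithelium after a Wnt signal, whereas the neighbouring ureteric bud is already epithelial and carries such genes.

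Members lie on several chromosomes of the assembly GRCm38.p6, whose coordinates and sequences here are from RefSeq. Krt8 (chr15:101996711-102004342) and Krt18 (chr15:102028216-102032026) are neighbours, 23.9 kb apart and transcribed away from each other. Krt7 and Grhl2 are on chromosome 15 as well, Krt19 on chromosome 11, Epcam and Crb3 on chromosome 17, Esrp1 on chromosome 4 and Rab25 on chromosome 3. The table of RefSeq promoters matched 6 of the 9 genes, all but Krt19, Esrp1 and Grhl2. The 250 bases before the start are shown for the keratin pair, whose signals are compared below, and for Epcam, the member with the largest second-day rise above background. They read 5′ to 3′ on the gene's strand, at chr15:102004343-102004592 (minus strand) for Krt8, chr15:102027966-102028215 (plus) for Krt18 and chr17:87635729-87635978 (plus) for Epcam. Capitals mark the E-box CACCTG, to which Zeb and Snai repressors bind, and the GC box GGGCGG, each on either strand.
Krt8: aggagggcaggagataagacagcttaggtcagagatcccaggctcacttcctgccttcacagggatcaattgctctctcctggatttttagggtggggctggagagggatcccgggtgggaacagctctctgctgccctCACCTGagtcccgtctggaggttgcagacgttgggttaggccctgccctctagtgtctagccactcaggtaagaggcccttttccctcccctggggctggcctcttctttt
Krt18: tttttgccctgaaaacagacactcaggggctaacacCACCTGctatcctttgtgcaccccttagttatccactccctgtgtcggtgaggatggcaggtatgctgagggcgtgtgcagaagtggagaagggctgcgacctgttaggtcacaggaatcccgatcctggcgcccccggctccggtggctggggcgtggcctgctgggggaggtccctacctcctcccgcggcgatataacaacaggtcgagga
Epcam: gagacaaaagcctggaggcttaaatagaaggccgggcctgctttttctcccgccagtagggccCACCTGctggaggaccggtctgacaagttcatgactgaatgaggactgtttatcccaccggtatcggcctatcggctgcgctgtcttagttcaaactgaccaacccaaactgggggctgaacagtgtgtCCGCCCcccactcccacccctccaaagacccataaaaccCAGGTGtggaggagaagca
The E-box occurred 1 time before Krt8, 1 time before Krt18 and 2 times before Epcam, and the GC box occurred 1 time, before Epcam. Of all 32851 promoter windows of this length, 17.2% held the E-box and 32.7% the GC box. A search for CTTTGAT, the core bound by TCF/LEF factors of the Wnt pathway, found it in 3.21% of all windows and in none of these 3. A search for TGANTCA, which AP-1 binds, found it in 6.75% of all windows and in none of these 3. The TATA box letters TATAAA were in 12.4% of all windows and also in none of these. No motif searched overlapped another here. These matches describe letters and not occupied sites.

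Signals are linear values after quantile normalization of log2(value + 1) over the arrays, given per array in the order of the replicate numbers. Background was a signal of 41.8, and a fold against a group whose mean was under it is a lower bound, written as at least so many fold. Differences are log2 differences ± SE of a limma fit over all arrays (n = 3 per group), with Benjamini-Hochberg adjustment over 34945 probe sets, and a difference passed at an adjusted p below 0.05. Median signals of the arrays were 87.24 to 106, and 70.9 to 72.4% of probe sets lay above background. The 3' beta-actin control had a mean of 3706 ± 1487 (SD, n = 3) in aggregates after 24 h of BIO, against group means of 8300 to 12330 elsewhere, and the Gapdh 3' over 5' ratio had group means of 8.14 to 14.2. Their part in the results was not tested beyond fits with each as a covariate. In bulk arrays, fewer cells of a type and less RNA per cell cannot be told apart.

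Over 14 comparisons, 35 of 238 member results passed, in 6 of the 9 genes. The share of all probe sets that passed in the same direction is given in brackets after each count. BIO raised 2 member probe sets (12.7%) and lowered 1 (10.9%) in aggregates, and it raised 0 (11.1%) and lowered 2 (10.9%) in dispersed cells. For the interaction of BIO with aggregation 0 were higher (0.369%) and 0 lower (0.449%) by limma, with 2 at an unadjusted p under 0.05. For aggregation in DMSO 0 were higher (1.19%) and 0 lower (1.4%) by limma, with 1 at an unadjusted p under 0.05. Aggregation in BIO gave 1 higher (9.07%) and 0 lower (7.08%). On the second day in BIO 5 were higher (7.35%) and 0 lower (9.98%), and on the second day in DMSO 2 were higher (10%) and 0 lower (12.8%). Keeping BIO rather than removing it gave 3 higher (7.84%) and 0 lower (7.41%).

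Against fresh cells, DMSO aggregates had 1 member probe set higher (16.1%) and 1 lower (13.3%), and DMSO dispersed cells 2 higher (13.5%) and 1 lower (13.7%). BIO aggregates had 2 higher (18.2%) and 0 lower (13.2%), and BIO dispersed cells 1 higher (10.6%) and 1 lower (9.68%). After BIO then DMSO 4 were higher (10.3%) and 0 lower (9.25%), and after BIO for 48 h 6 were higher (14.8%) and 0 lower (13.4%). With 17 probe sets, several of them from the same gene, counts of 1 or 2 are near the background shares.

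**Figure D1:**
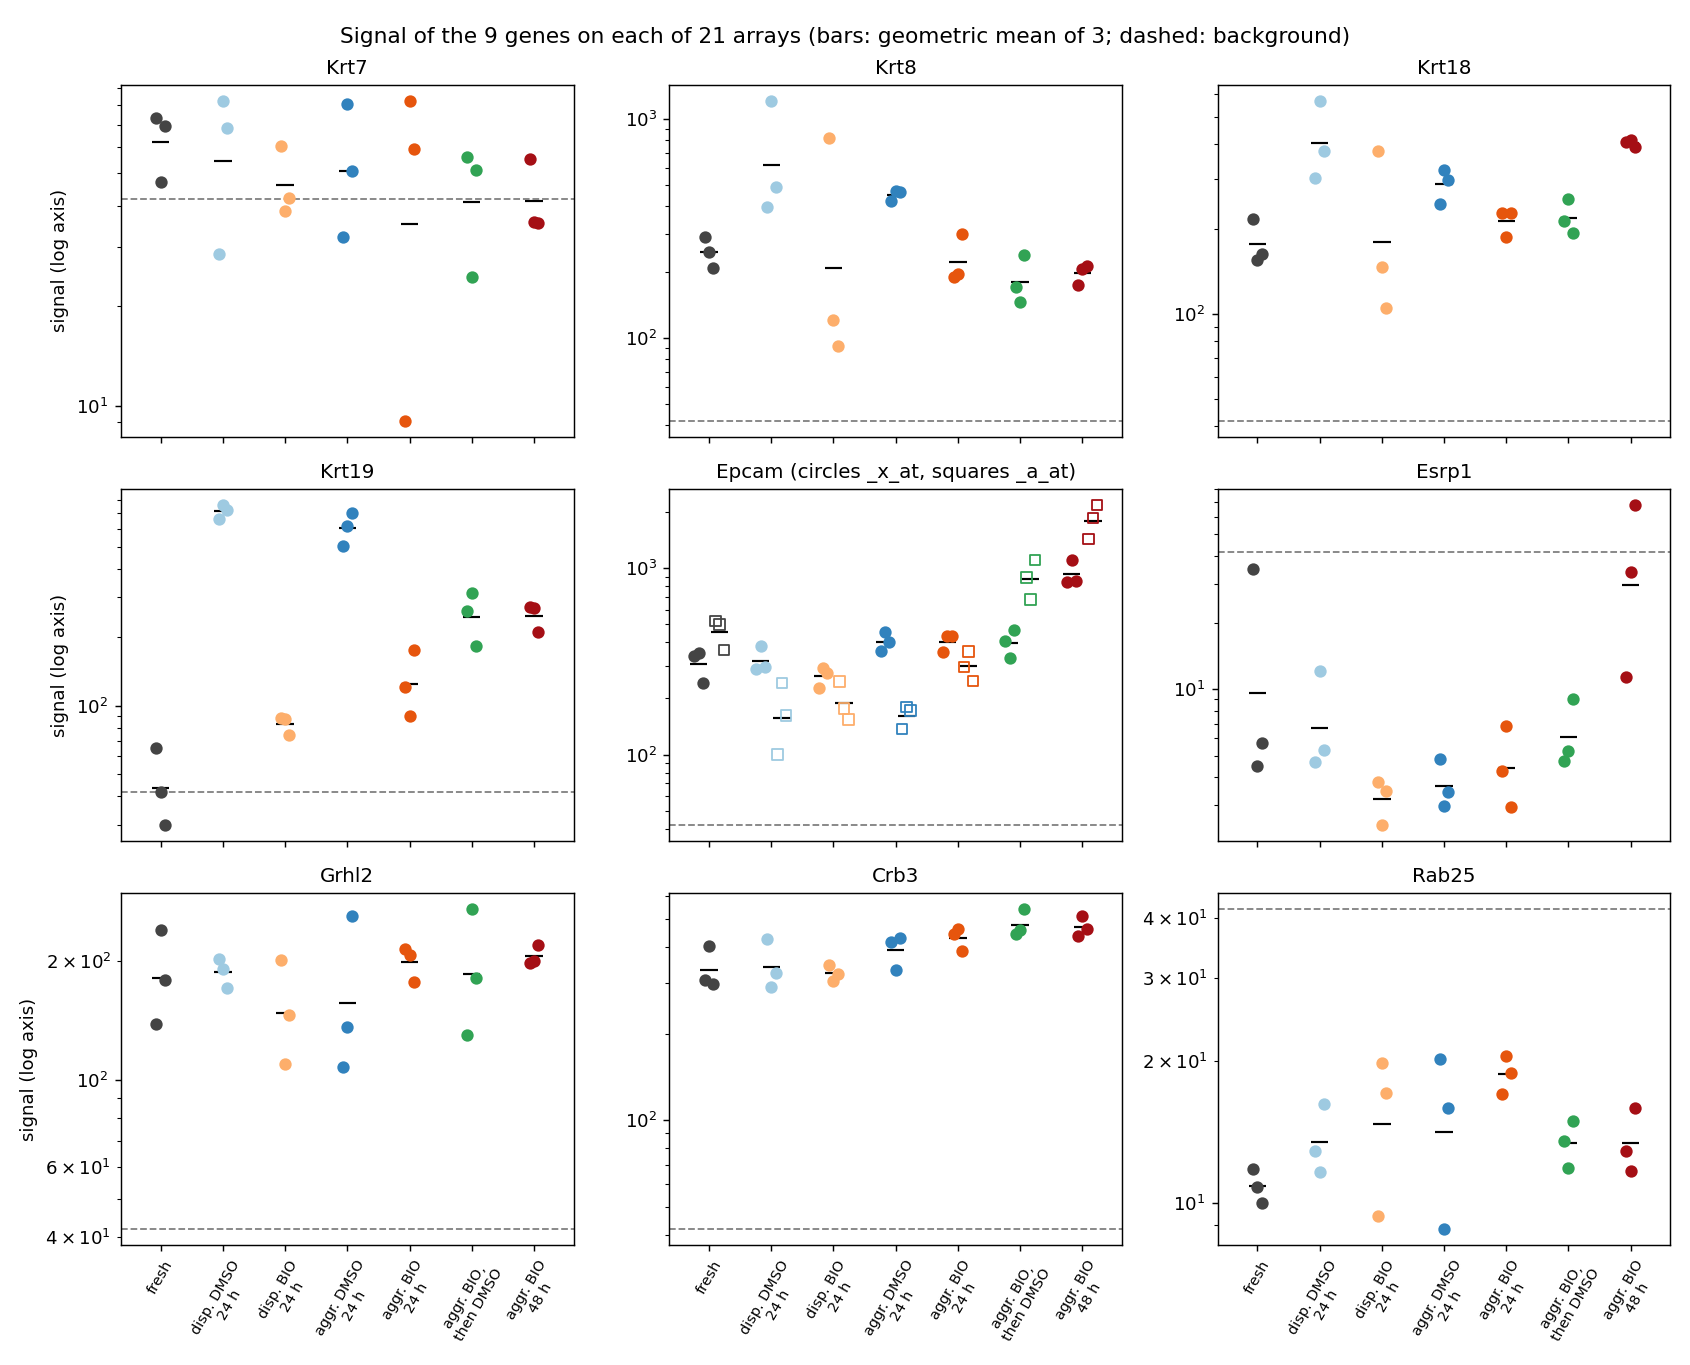
Quantile-normalised signal (log axis, arbitrary units) of each member's brightest probe set on each of the 21 arrays, by group; for Epcam the second bright probe set is added as squares. Bars are geometric means of 3 arrays and the dashed line is the background of 41.8. Krt19 lies at 501.9 to 761.3 in DMSO at 24 h and at 74.13 to 175.7 in BIO at 24 h, while Esrp1 and Rab25 lie under the line on all arrays but 1 of Esrp1.

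Krt19 moved most among the members: it was low in fresh cells, high after a day in DMSO in either form of culture, and much lower in BIO. Fresh arrays read 65.36, 41.8 and 29.87, at or near background, with 1 of the 3 above it. Dispersed cells in DMSO read 660.5, 761.3 and 726.8, and aggregates in DMSO 501.9, 617.5 and 705.6. With BIO the dispersed arrays read 88.24, 87.21 and 74.13, and the aggregates 121.1, 90.21 and 175.7. All DMSO arrays thus stood above all BIO arrays at 24 h, and all BIO arrays above all fresh ones. Krt19 fell by 2.27 ± 0.27 on the log2 scale with BIO in aggregates (4.82-fold, adjusted p = 1.21e-05) and by 3.09 ± 0.27 in dispersed cells (8.53-fold, adjusted p = 3.51e-07). The difference between those effects, 0.82 ± 0.39, did not pass (adjusted p = 0.443). Against fresh cells it rose 13.6-fold in DMSO aggregates (adjusted p = 3.95e-08) and 16.1-fold in dispersed DMSO cells (adjusted p = 1.53e-08), and 2.82-fold in BIO aggregates (adjusted p = 0.000631). With the fresh arrays below background raised to it, these folds were 12.2, 14.4 and 2.53.

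At 48 h the level of Krt19 with BIO kept overlapped that with BIO removed. It read 261.3, 312.5 and 182.5 after BIO then DMSO and 272.6, 269 and 209.9 after BIO for 48 h. Keeping BIO against removing it gave a difference of 0.02 ± 0.27 (adjusted p = 0.981). Both stood above fresh cells, by 5.56-fold (adjusted p = 6.67e-06) and 5.62-fold (adjusted p = 3.8e-06), or 4.98-fold and 5.04-fold with those fresh arrays raised to background. From 24 h of BIO, the rise was 1.97-fold with DMSO on the second day (adjusted p = 0.0162) and 1.99-fold with BIO (adjusted p = 0.0187). These last calls were weakly held. The rise with DMSO was lost without BIO aggregate replicate 2 (adjusted p = 0.0856) or without BIO then DMSO replicates 1 (0.0514) or 2 (0.0745), and that with BIO without BIO aggregate replicates 1 (0.0562) or 2 (0.0952) or 48 h BIO replicates 1 (0.0653) or 2 (0.0559). In order of level the groups ran from dispersed and aggregated DMSO cells, which overlapped, through the 48 h groups, which overlapped each other, to BIO aggregates, BIO dispersed cells and fresh cells, which did not overlap. BIO aggregates and BIO dispersed cells, though apart, differed by 0.58 ± 0.27, which did not pass (adjusted p = 0.167). BIO dispersed cells differed from fresh cells by 0.92 ± 0.27 (adjusted p = 0.0246). That call was lost without fresh replicates 2 (adjusted p = 0.0696) or 3 (0.132) or dispersed BIO replicates 1 (0.0754) or 2 (0.0726).

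Krt8, the basic partner of the simple pair, passed no comparison with any of its 3 probe sets (0 of 42 results by limma, lowest adjusted p 0.0733). At an unadjusted p under 0.05 there were 2, BIO in dispersed cells and DMSO dispersed cells against fresh. Its brightest probe set read 290.8, 247.4 and 209.6 in fresh cells and 420.8, 468.7 and 465.2 in DMSO aggregates. BIO aggregates read 189, 196.3 and 299.5, all below the DMSO aggregates, with a difference of -1.01 ± 0.59 (adjusted p = 0.254). In dispersed cells the arrays of a group lay far apart: DMSO gave 396.6, 1211 and 488.4, and BIO gave 821, 121.3 and 92.14. One array of each group thus stood above the other arrays, and BIO against DMSO gave -1.55 ± 0.59 (adjusted p = 0.0733). The 48 h groups read 170.1, 145.3 and 239.8 after BIO then DMSO and 174.5, 206.1 and 214.1 after BIO for 48 h, and they overlapped. The other probe sets of Krt8 followed the brightest at r = 0.934 and 0.895 over the 21 arrays, which share their groups.

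Krt18, the acidic partner, was higher in dispersed DMSO cells and after 48 h of BIO than in fresh cells, and lower in dispersed cells with BIO than with DMSO. Fresh arrays read 216.8, 155.6 and 162.5, and BIO for 48 h gave 406.6, 414.5 and 388.9, with no overlap. That rise was 1.19 ± 0.34 (2.28-fold, adjusted p = 0.0143). Without fresh replicate 2 its adjusted p was 0.0538. BIO then DMSO read 212.7, 255 and 192.9, below every 48 h BIO array, but keeping BIO against removing it did not pass (0.88 ± 0.34, adjusted p = 0.0976). Dispersed DMSO cells read 302.4, 568 and 377.1, above every fresh array (1.18 ± 0.34, adjusted p = 0.0151). This was lost without fresh replicate 2 (adjusted p = 0.0547) or dispersed DMSO replicate 2 (0.0799). Dispersed BIO cells read 376.3, 147 and 104.7, which overlapped the DMSO arrays. Krt18 fell there by 1.16 ± 0.34 on the log2 scale (adjusted p = 0.0208), a call lost without dispersed DMSO replicate 2 (0.105) or dispersed BIO replicates 2 (0.0853) or 3 (0.121). In aggregates DMSO gave 246, 323.6 and 299 and BIO 226.9, 187.5 and 227.7, all lower, with no call (adjusted p = 0.418).

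Krt8 and Krt18 were both far above their group means on the same 2 dispersed arrays. Dispersed DMSO replicate 2 lay above its group mean by 0.97 for Krt8 and 0.50 for Krt18 on the log2 scale, and dispersed BIO replicate 1 by 1.96 and 1.06. Over the 21 arrays the deviations from the group means, which leave 14 degrees of freedom, had r = 0.885. Without those 2 arrays, and with the group means taken again, r was 0.276 over 19 arrays, and without all dispersed arrays it was 0.078 over 15, so the relation rests mainly on those 2 arrays. Of all other genes, Cdh1 (E-cadherin) had deviations that followed Krt8 most closely after Krt18 (r = 0.828), a search made after the Krt8 values were seen. Cdh1 read 70.22, 221.2 and 111.3 in dispersed DMSO cells and 269.3, 55.81 and 54.53 in dispersed BIO cells, highest on the same 2 arrays. The mean correlation of these arrays with the rest of their group was 0.9885 and 0.9883. It was taken over probe sets with a mean log2 signal above the median. Such a correlation over many probe sets cannot show whether a few genes deviate.

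**Figure D2:**
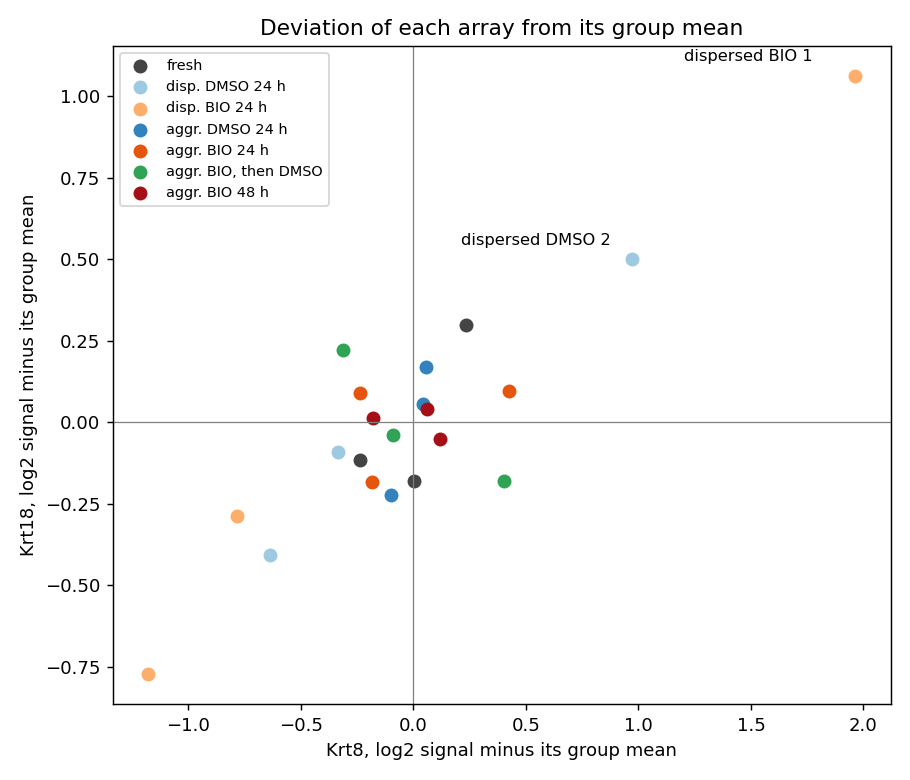
Deviation of each of the 21 arrays from its group mean, in log2 signal, for Krt8 (x axis) and Krt18 (y axis), coloured by group. Dispersed BIO replicate 1 (1.96 and 1.06) and dispersed DMSO replicate 2 (0.97 and 0.50) lie at the upper right. The other arrays of those groups lie below 0 for both genes. Since deviations in a group sum to 0, the sum over these other arrays is below 0 by construction. The 15 arrays of the other groups form a cloud with r = 0.078.

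Krt7, the basic ductal keratin, stayed near background. Its single probe set lay above background on 14 of 21 arrays, between 9.04 and 82.47 with a median of 51.05, and group means ran from 42.15 in BIO for 48 h to 63.17 in fresh cells. All neighbours in the order of its levels overlapped. It passed 0 of 14 comparisons by limma, with 0 at an unadjusted p under 0.05 and a lowest adjusted p of 0.384, and a difference under the spread of these arrays was not detectable at this signal.

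Epcam was highest in aggregates kept in BIO for 48 h by both of its probe sets. These had r = 0.739 over the 21 arrays, which share their groups. They differed in other comparisons, such as 24 h of culture against fresh cells and the DMSO day. By the probe set with the suffix _a_at, fresh arrays read 522.6, 499.9 and 363.5. After 24 h it read 100.1, 242.8 and 162 in dispersed DMSO cells, 246.5, 176.3 and 154 in dispersed BIO cells, 136.8, 179.6 and 172.6 in DMSO aggregates, and 295.9, 358.1 and 248 in BIO aggregates. All cultured arrays at 24 h were below all fresh arrays. It fell by 1.49 ± 0.29 in DMSO aggregates (2.81-fold, adjusted p = 0.000972), by 1.52 ± 0.29 in dispersed DMSO cells (2.88-fold, adjusted p = 0.000762) and by 1.27 ± 0.29 in dispersed BIO cells (2.41-fold, adjusted p = 0.00461). BIO aggregates differed from fresh by -0.62 ± 0.29 (adjusted p = 0.12). BIO raised it in aggregates by 0.87 ± 0.29 (adjusted p = 0.0381), with no overlap. This call was lost without any 1 of the DMSO aggregates (adjusted p 0.0594 to 0.128) or without BIO aggregate replicates 1 (0.0835) or 2 (0.135).

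At 48 h the same probe set read 891.5, 681.5 and 1109 after BIO then DMSO and 1440, 1867 and 2187 after BIO for 48 h. Both groups stood above all fresh and all 24 h arrays and did not overlap. The second day in BIO raised it 6.05-fold (2.60 ± 0.29, adjusted p = 1.31e-05) and the second day in DMSO 2.94-fold (1.56 ± 0.29, adjusted p = 0.00116). Keeping BIO against removing it gave 2.06-fold (1.04 ± 0.29, adjusted p = 0.0219), lost without BIO then DMSO replicates 1 (adjusted p = 0.054) or 2 (0.1) or 48 h BIO replicates 2 (0.0646) or 3 (0.0861). Against fresh cells it was 3.95-fold higher after BIO for 48 h (adjusted p = 7.44e-05) and 1.92-fold higher after BIO then DMSO (adjusted p = 0.0305). The latter was lost without fresh replicates 2 (0.054) or 3 (0.124) or BIO then DMSO replicates 1 (0.0767) or 3 (0.12).

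By the probe set with the suffix _x_at, Epcam stood apart where BIO was kept for both days. It read 849.5, 1107 and 854.5 in BIO for 48 h, and the other 18 arrays lay between 226.5 and 466.4. The rise was 3.02-fold against fresh cells (adjusted p = 5.68e-06), 2.29-fold from 24 h of BIO (adjusted p = 0.000234) and 2.34-fold against BIO then DMSO (1.23 ± 0.18, adjusted p = 0.000151). Its changes against fresh cells at 24 h did not pass (-0.23 to 0.40, lowest adjusted p 0.111), nor did that on the DMSO day (-0.03 ± 0.18, adjusted p = 0.931). Aggregation in BIO gave 0.62 ± 0.18 (adjusted p = 0.029), which was lost without dispersed BIO replicates 1 (adjusted p = 0.115) or 3 (0.0552) or BIO aggregate replicates 2 (0.0937) or 3 (0.0795). The call was also lost in the deposited scaling, where the difference was 0.39 (adjusted p = 0.178); quantile normalization had moved the median of all probe sets in that comparison to 0.129, from -0.00372. At 24 h its aggregates read 355.4 to 433.1 with BIO and 359.4 to 454.3 with DMSO, which overlapped, with no call. Both probe sets thus showed the rise on the second day in BIO. The fall in culture, the rise with BIO in aggregates and the rise on the DMSO day rest on the _a_at probe set alone. Which transcripts each detects was not tested.

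**Figure D3:**
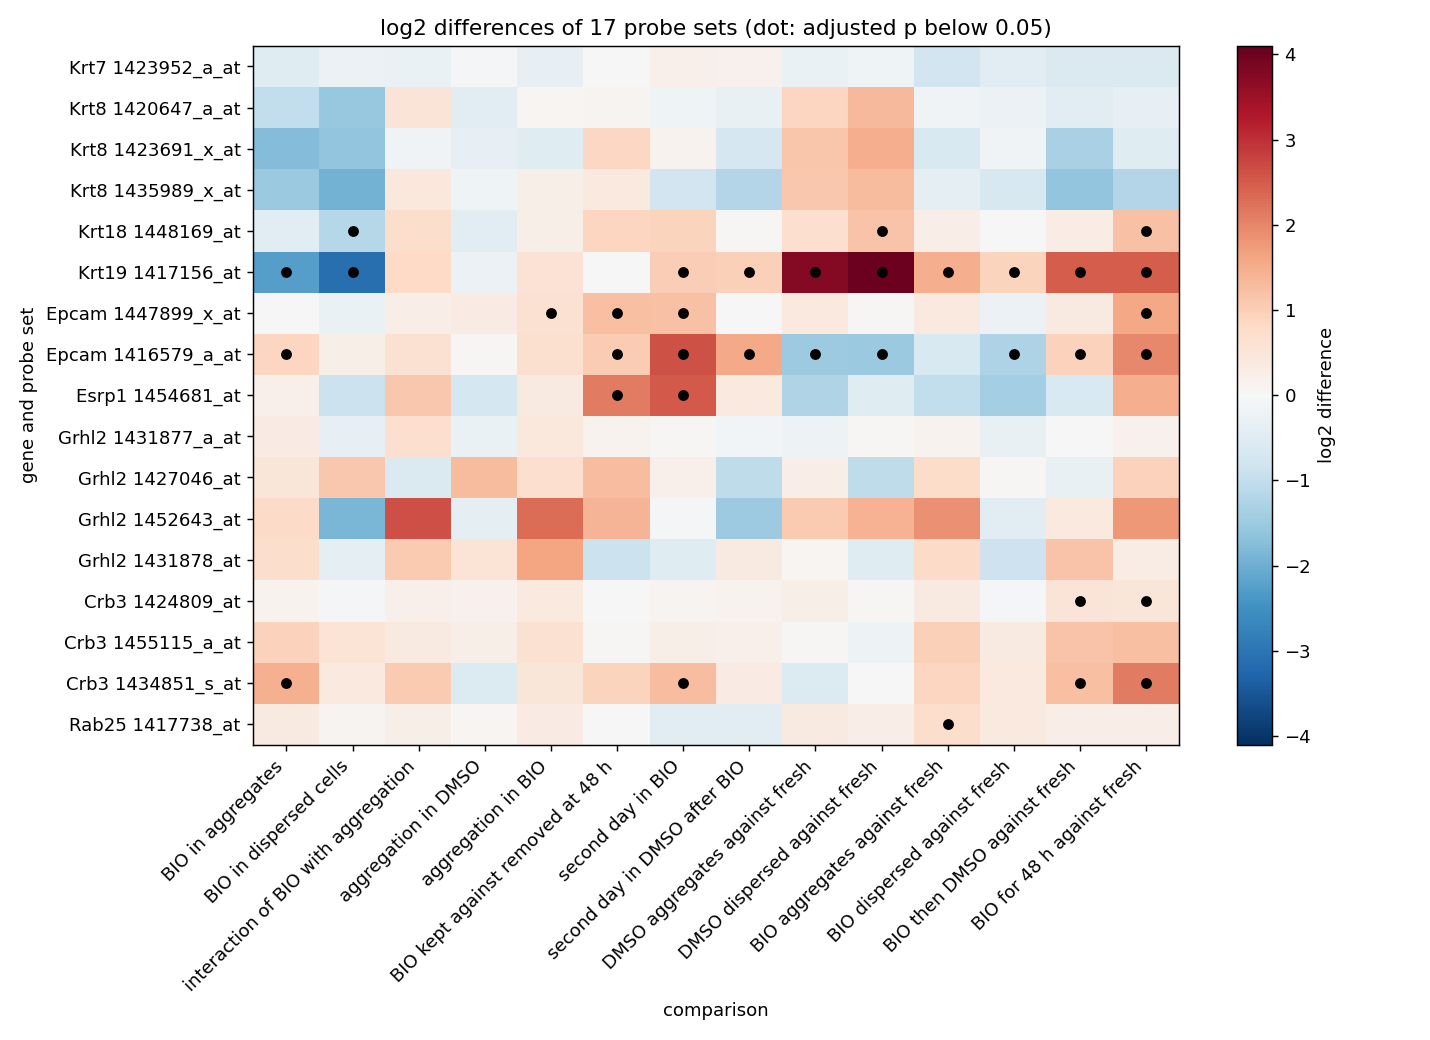
Heat map of log2 differences (colour, red higher and blue lower in the first-named group) of the 17 member probe sets (rows) in 14 comparisons (columns); dots mark an adjusted p below 0.05. Krt19 has 10 dots and the Epcam probe sets 13 between them, Krt7, Krt8 and Grhl2 have none, and the 3 dots of Esrp1 and Rab25 compare groups that both lie below background.

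Crb3 was modestly higher at 48 h than in fresh cells. Its brightest probe set read 307, 402 and 296.7 in fresh cells, 443.2, 456.3 and 540.7 after BIO then DMSO and 436.3, 511.7 and 460.5 after BIO for 48 h. The 48 h groups overlapped each other and stood above fresh cells by 1.44-fold (0.52 ± 0.16, adjusted p = 0.0261) and 1.41-fold (0.50 ± 0.16, adjusted p = 0.026). The first call was lost without fresh replicates 1 (adjusted p = 0.0887) or 3 (0.106) or BIO then DMSO replicate 3 (0.104). The second was lost without fresh replicates 1 (0.0846) or 3 (0.106) or 48 h BIO replicates 2 (0.0959) or 3 (0.0511), and in the deposited scaling (0.0806). No comparison at 24 h passed for it, where the groups overlapped for BIO against DMSO.

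The dimmer probe set of Crb3 with the suffix _s_at had a wider range. It read 38.41, 47.1 and 36.42 in fresh cells, 52.36, 17.24 and 21.06 in DMSO aggregates, 89.94, 101.1 and 46.59 in BIO aggregates, 127.6, 89.32 and 78.01 after BIO then DMSO, and 167.5, 193.9 and 181.1 after BIO for 48 h. Only the last group stood apart from all others. It was at least 4.08-fold higher after BIO for 48 h than in fresh cells (adjusted p = 0.000294) and at least 1.65-fold higher with BIO in aggregates (adjusted p = 0.00707), although those arrays overlapped. BIO then DMSO was at least 2.18-fold above fresh (adjusted p = 0.0232), lost without fresh replicates 1 (0.0622) or 3 (0.0737) or BIO then DMSO replicate 1 (0.102). The second day in BIO gave 2.38-fold (adjusted p = 0.0241), lost without BIO aggregate replicate 3 (0.11) or any 1 of the 48 h BIO arrays (0.0509 to 0.0643). The third probe set lay between 11.81 and 151.2 and passed no comparison.

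Esrp1 was below background on 20 of 21 arrays. BIO for 48 h read 11.31, 33.77 and 67.84, the last being the 1 array above background, against 4.746, 5.258 and 9.019 after BIO then DMSO and 4.294, 6.792 and 2.927 after 24 h of BIO. One fresh array, at 34.91, and one dispersed DMSO array, at 12.06, were above the lowest of these 48 h BIO arrays. Keeping BIO passed (adjusted p = 0.0346), as did the second day in BIO (adjusted p = 0.0126), but both groups' means lay below background and no fold is given. The first was lost without BIO then DMSO replicates 1 (0.105) or 2 (0.0963) or 48 h BIO replicates 2 (0.0974) or 3 (0.156), and the second without 48 h BIO replicate 3 (0.0621). Rab25 lay between 8.822 and 20.48, below background on every array. Its single call, BIO aggregates above fresh cells (adjusted p = 0.0428), compared groups below background and was lost without any 1 of the 6 arrays (0.0602 to 0.117).

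Grhl2 was measured by 4 probe sets. The brightest was above background on all 21 arrays, between 107.9 and 270.3 with a median of 190.6, and its groups overlapped. Another was above background on 15 arrays, the remaining 2 on 2 and 0. Of 56 results, 0 passed by limma and 8 had an unadjusted p under 0.05, with a lowest adjusted p of 0.0604 from a probe set below background. Rises or falls of Grhl2 smaller than the spread of the arrays were not detectable.

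Some calls did not hold in fits with an array-quality measure as a covariate, which were added after the data were seen. With the beta-actin control, the Krt19 calls were lost for BIO aggregates against fresh (adjusted p = 0.0776) and for the second day in BIO (0.276) and in DMSO (0.523). The Epcam calls by _a_at were lost for BIO in aggregates, where the difference went from 0.87 to 0.20 (adjusted p = 0.871), and for BIO kept against removed (0.158), and that by _x_at for aggregation in BIO (0.486). The Crb3 calls by _s_at were lost for BIO in aggregates (0.384) and the second day in BIO (0.155), and that of its brightest probe set for BIO for 48 h against fresh (0.0547). Esrp1 for BIO kept against removed (0.275) and Rab25 for BIO aggregates against fresh (0.436) were lost too. With the Gapdh ratio, Krt18 was no longer called for BIO in dispersed cells (0.0718) or DMSO dispersed cells against fresh (0.0678). Krt19 (0.0986), Esrp1 (0.0508) and Crb3 by _s_at (0.263) were not called for the second day in BIO, nor Epcam by _x_at for aggregation in BIO (0.266) and by _a_at for BIO then DMSO against fresh (0.0678), nor Rab25 for BIO aggregates against fresh (0.202). Most calls lost with the beta-actin control involve BIO aggregates at 24 h, where that control was lowest. This control is the signal of a cellular gene, so array quality and an effect of the treatment on it cannot be told apart. All these calls kept their direction.

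The other epithelial genes are a list of 34 measured genes of junctions, proteases and regulators. Against fresh cells 19 were higher and 0 lower after BIO for 48 h, and 19 and 0 after BIO then DMSO. By probe set these were 27 of 60 higher (14.8% of all probe sets) and 0 lower (13.4%), and 24 higher (10.3%) and 0 lower (9.25%), with median differences over their probe sets of 0.80 and 0.69 against 0.04 and 0.01 over all probe sets. In aggregates at 24 h BIO raised 8 genes and lowered 2 (13 and 4 probe sets, against 12.7% and 10.9% of all), and with aggregation in BIO 14 genes rose and 0 fell (18 probe sets higher and 1 lower, against 9.07% and 7.08%). The tight junction genes Cldn7 and Ocln and the tricellular junction gene Lsr were among the largest at 48 h. Cldn7 read 73, 28.4 and 38.32 in fresh cells and 636.2, 943.4 and 1006 after BIO for 48 h (adjusted p = 1.26e-05), with no fold given since 2 of these fresh arrays were below background. Ocln was at least 15.8-fold higher (adjusted p = 3.06e-07), Lsr at least 10.2-fold (adjusted p = 2.03e-05) and the membrane protease St14 at least 7.02-fold (adjusted p = 2.14e-06). Cdh1 went the other way between the 48 h groups. It read 1133, 1068 and 2205 after BIO then DMSO and 202.3, 339.6 and 370.8 after BIO for 48 h, so that it was 4.70-fold lower with BIO kept (adjusted p = 0.0174), where Epcam was higher.

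Among 19 other keratins, 4 were higher and 0 lower after BIO for 48 h than in fresh cells. By probe set this was 4 of 28, near the 14.8% of all probe sets that were higher, and 0 lower (13.4% of all). Krt23, an acidic keratin, read 15.28, 35.74 and 22.27 in fresh cells, 71.59, 55.62 and 57.29 after BIO then DMSO, and 1007, 1338 and 1103 after BIO for 48 h. It was 18.4-fold higher with BIO kept than removed (4.20 ± 0.22, adjusted p = 2.41e-09). Krt5, a basal-cell keratin, read 70.13, 106.3 and 79.39 in fresh cells, 75.6, 124.4 and 23.19 after BIO then DMSO and 818.6, 1001 and 814.9 after BIO for 48 h, 14.2-fold higher with BIO kept (adjusted p = 0.000355), or 11.8-fold with the 1 array below background raised to it. Krt80 and Krt6b were the remaining keratins higher than in fresh cells (at least 2.16-fold and 2.37-fold, adjusted p = 0.0128 and 0.0288). Krt14, the usual partner of Krt5, lay between 15.5 and 84.23 on all arrays and Krt13 between 11.24 and 109.4. Of 17 other filament and linker genes, 4 were higher and 2 lower (7 and 3 of 39 probe sets, against 14.8% and 13.4% of all), led by desmoplakin (Dsp), which ties keratins to desmosomes. Dsp read 472.2, 382.5 and 346.4 in fresh cells and 4413, 5101 and 4821 after BIO for 48 h (12-fold, adjusted p = 5.02e-10). Of 17 apical polarity genes, 6 were higher and 0 lower (9 and 1 of 41 probe sets, against 14.8% and 13.4% of all), with a median difference of 0.07 against 0.04 over all probe sets.

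**Figure D4:**
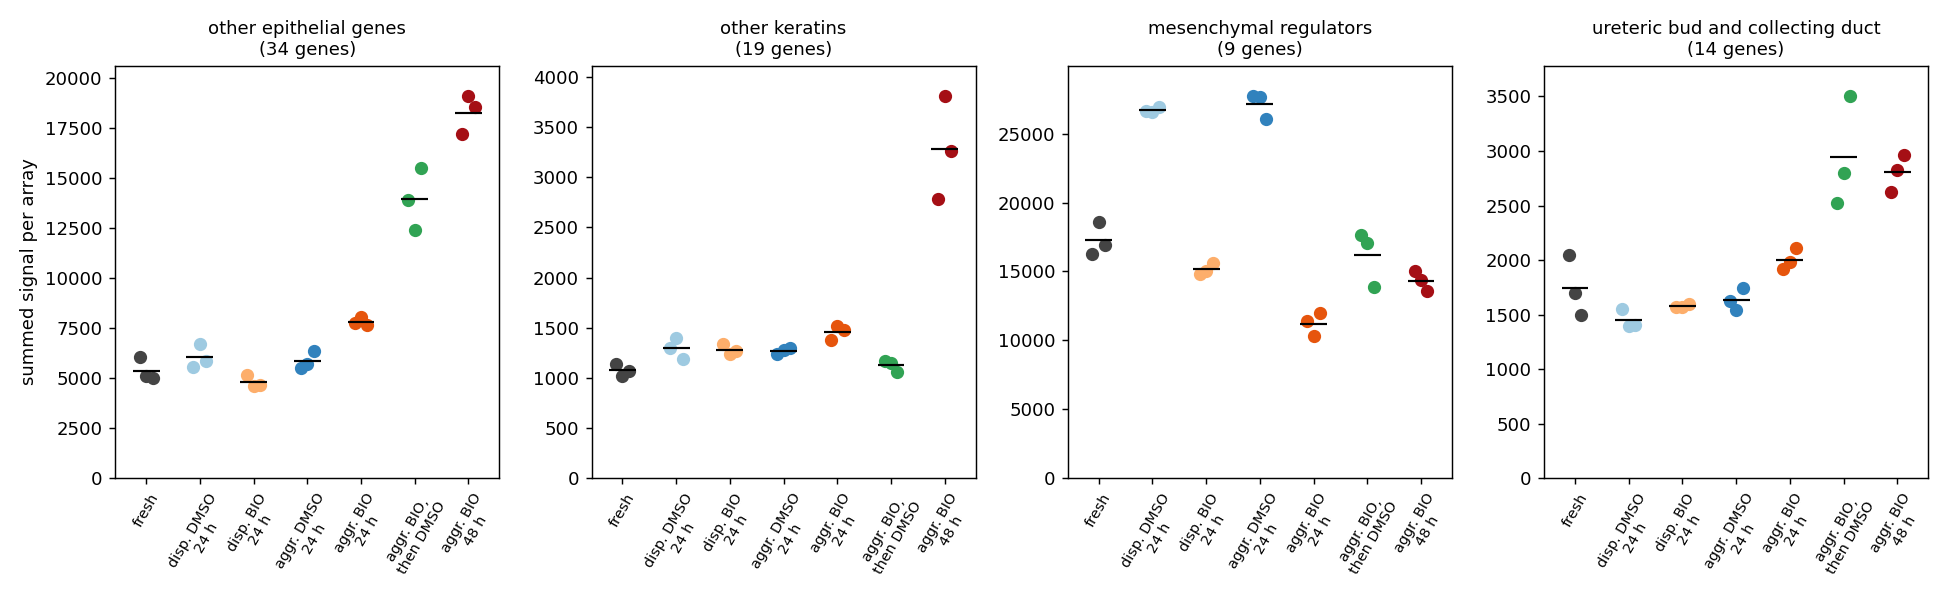
Signal summed per array over the genes of 4 lists, each gene by its brightest probe set, by group (linear axes from 0, bars are means of 3 arrays). The other epithelial genes sum to 4993 to 6037 in fresh cells and 17200 to 19090 after BIO for 48 h. The sum of the other keratins stands out in BIO for 48 h alone (2784 to 3807), where Krt23 read 1007 to 1338 and Krt5 814.9 to 1001. The list of mesenchymal regulators, fibronectin included, is highest in DMSO at 24 h, and the ureteric bud list is highest at 48 h.

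The list of mesenchymal regulators held 9 genes, with Snai and Zeb repressors and the matrix protein fibronectin (Fn1) among them. Its summed signals were 26060 to 27710 in DMSO aggregates and 10300 to 11960 in BIO aggregates. Zeb2 read 479.1, 707.7 and 601.7 in DMSO aggregates, so that sum rests mostly on other genes. With BIO in aggregates 1 gene was higher and 5 lower (1 and 12 of 24 probe sets, against 12.7% and 10.9% of all). Snai2 fell 4.87-fold (adjusted p = 1.37e-08), Fn1 4.55-fold (adjusted p = 8.03e-10) and Zeb2 4.40-fold (adjusted p = 6.32e-06) there. After BIO for 48 h 2 were higher and 3 lower than in fresh cells (6 and 9 of 24 probe sets, against 14.8% and 13.4% of all), with Twist1 5.02-fold higher (adjusted p = 1.26e-05) and Snai2 4.38-fold lower (adjusted p = 2.52e-08).

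Summed marker lists of several cell types differed between some of these groups. The ureteric bud list of 14 genes summed to 1494 to 2051 in fresh cells, 1399 to 1746 in DMSO at 24 h, 2526 to 3502 after BIO then DMSO and 2628 to 2962 after BIO for 48 h. After BIO then DMSO 2 genes were higher and 1 lower than in fresh cells (2 and 1 of 30 probe sets, against 10.3% and 9.25% of all). After BIO for 48 h 5 were higher and 1 lower than in fresh cells (5 and 3 of 30 probe sets, near the 14.8% and 13.4% of all). Gata3 was at least 2.26-fold higher (adjusted p = 9.94e-05; 203.4, 55.03 and 77.83 against 2.473 to 4.526), Emx2 5.60-fold and Tfap2a 2.31-fold, while Calb1 was 4.55-fold lower. Hoxb7 had a mean of 64.86 in fresh cells and 54.16 after BIO for 48 h, and Ret 102.3 and 159.1. Their part in the Epcam, Crb3 and keratin results was not tested. The mesothelium list of 8 genes summed to 10220 to 11090 in fresh cells and 5179 to 5674 after BIO for 48 h, where 1 was higher and 2 lower (2 and 2 of 11 probe sets, against 14.8% and 13.4% of all), and its defining genes Msln, Upk3b and Lrrn4 had group means below background in both. At 24 h it summed to 4056 to 4430 in dispersed and 4536 to 5400 in aggregated DMSO cells. With BIO, where Krt19 was lower, it summed to 11140 to 11610 and 10630 to 12290. In these groups 4 or 5 of its 8 genes had means above background, so the sum rests on part of the list. It cannot show by itself whether mesothelial cells were present. The part of this list in the Krt19 result was not tested. The interstitial stroma list of 8 genes summed to 13420 to 14640 in fresh cells, 14020 to 14880 in DMSO aggregates, 3852 to 4075 in BIO aggregates and 2183 to 2714 after BIO for 48 h. The nephron epithelium list of 10 measured genes was highest after BIO then DMSO, at 16950 to 19470. Endothelial and leukocyte lists of 6 genes each summed to at most 718.8 and 1800 on any array. The progenitor marker Six2 read 9270, 8752 and 8565 in fresh cells and 406.8, 525.5 and 541 after BIO for 48 h. All 8 progenitor genes were lower there than in fresh cells (11 of 12 probe sets lower and 0 higher, against 13.4% and 14.8% of all).

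The genes whose signals were most like a member's over the 21 arrays were listed by Pearson's r, which the arrays' shared groups raise. For Krt19 they were Ehd1 (an endocytic recycling protein, r = 0.978), Pkp2 (plakophilin of desmosomes, 0.978) and Plin2 (a lipid droplet protein, 0.973). Krt18 was most like Rasl11a (0.814), Cd47 (0.8) and Styk1 (0.797), and Krt8 most like Nacc2 (0.777), Lpar3 (0.761) and Csnk1d (0.748). For the _x_at probe set of Epcam they were Mindy1 (0.923), Cdh13 (0.911) and Ptgfr (0.9). For its other probe set, added after the values were seen, they were the protease inhibitor Spint2 (0.961), Lypd6b (0.955) and Pygl (0.955). Crb3 was most like Wdr66 (0.928) and Tspan15 (0.851), Krt7 like Dlg2 (0.828) and Grhl2 like Lrriq3 (0.732).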

How the data were processed

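Values of 21 arrays with 45101 probe sets were deposited as linear signal intensities between 0.1 and 18025.33. Which software and scaling made them is not given in the sources used here. Per the labels' protocols, RNA went through 2 rounds of amplification and biotin labelling. The intensity values were turned into log2(value + 1) and quantile-normalised over all arrays. At most 0.288% of values were identical between arrays.

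Gene symbols came from the platform's probe table and RefSeq names: 34741 by current Entrez ID, 204 with the table's symbol kept. Of the rest, 932 had several symbols, 9160 had none and 64 were controls, and these were not tested. Background was the 95th percentile of 27 Bacillus control probe sets. For a lower-bound fold, arrays below background were raised to it. limma 3.58.1 (lmFit, eBayes) in R 4.3.3 fitted 1 mean per group over all arrays, with 14 residual and 1.661 prior degrees of freedom, and all adjusted p-values are from it. The 3 arrays per group limit the precision.

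The members, the comparisons and the gene lists were chosen with earlier results of these data known. Named genes were the 9 members, up to 4 genes of a list with the largest change past the threshold (1 where none passed), and the 3 genes most like a member's brightest probe set. Krt13, Krt14, Hoxb7, Ret, Msln, Upk3b, Lrrn4 and, beside Krt8, Cdh1 were named after their values were seen. The fit was tested on simulated data. Also run were the deposited scaling, 1 probe set per gene, log2(value + 16), only probe sets above background, the replicate number as a block and leaving out each array. Added after seeing the data were the Gapdh 3' over 5' ratio and the 3' beta-actin control as covariates, and leaving out the 2 dispersed arrays highest in Krt8. Figures used matplotlib 3.10.9 in Python 3.11.15.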

Additional observations from a re-analysis of the deposited data

How the results depend on the processing

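None of the 35 member calls reversed in any alternative run; 16 passed in every one and 19 were lost in at least one. Calls kept were 32 of 35 in the deposited scaling, 35 of 35 with log2(value + 16), 32 of 32 above background, 22 of 22 with 1 probe set per gene, 27 of 35 with the Gapdh ratio and 24 of 35 with the beta-actin control as a covariate. Probe sets called moved by more than 1.5 times as follows. In the deposited scaling, aggregation in BIO had 0. With 1 probe set per gene, which tests fewer of them, BIO in aggregates, the DMSO second day, DMSO aggregates and BIO dispersed cells against fresh had 1 each, BIO then DMSO against fresh 2 and the second day in BIO 3. Above background, BIO aggregates against fresh had 1. With the Gapdh ratio, BIO in dispersed cells and BIO aggregates against fresh had 1 each, aggregation in BIO 0 and the second day in BIO 2. With beta-actin, BIO in aggregates, BIO kept against removed and the DMSO second day had 1 each, aggregation in BIO and BIO aggregates against fresh 0 and the second day in BIO 3; the causes were not tested.

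Leaving out 1 array gave 2 to 3 calls for BIO in aggregates, 1 to 5 for BIO in dispersed cells (5 without dispersed BIO replicate 1), 0 to 0 for the interaction and for aggregation in DMSO, 0 to 2 for aggregation in BIO, 1 to 3 for BIO kept against removed, 3 to 4 for the second day in BIO and 1 to 3 for that in DMSO. Against fresh cells it gave 2 to 3 for DMSO aggregates, 2 to 4 for DMSO dispersed cells, 1 to 2 for BIO aggregates, 1 to 2 for BIO dispersed cells, 1 to 4 for BIO then DMSO and 5 to 7 for BIO for 48 h. Without both dispersed arrays highest in Krt8, BIO in dispersed cells had 4 calls and aggregation in BIO 2, and 6 of 8 calls were kept: Epcam by _x_at for aggregation in BIO (adjusted p = 0.107) and Krt19 for BIO dispersed cells against fresh (0.0916) were lost. Those arrays were picked by Krt8 itself, which narrows its spread by construction, so nothing is read from the added Krt8 and Krt18 calls.

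Replicate numbers did not pair the arrays: same-numbered arrays deviated with r of -0.51 to 0.363 over 63 pairs, 11 of them over 0.1, and 15 correlated best with their own number. With the replicate number as a block, 32 of 35 calls were kept and BIO aggregates against fresh had 1; lost were Epcam by _a_at for BIO in aggregates (0.0505), Esrp1 for BIO kept against removed (0.0558) and Rab25 (0.0503). Signals under the background of 41.8 limit Krt7, Esrp1, Rab25 and part of Grhl2.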
